A study of Homo sapiens with 6 samples.

Results

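Mitochondrial ribosomal protein genes, named MRPL for the large subunit and MRPS for the small subunit, were followed in RNA from mitochondria isolated from HepG2 cells. Members were all protein-coding genes outside mitochondrial DNA (mtDNA) whose identifier maps to a symbol starting with MRPL or MRPS, without pseudogenes, and they numbered 78 of the 57500 genes in the tables, 49 MRPL and 29 MRPS. HepG2 is a human liver carcinoma line, labelled wild type. The 6 libraries formed 3 groups of 2, all kept for 48 h: a control that received the solvent DMSO alone (0 µM), and cells given GenX at 10 µM or at 100 µM. GenX is the trade name of a perfluoroalkyl ether acid used in making fluoropolymers. Mitochondria were isolated with a kit, total RNA was extracted from them, and stranded libraries were made after depletion of ribosomal RNA, so a kit fraction of 1 cell line stands for the organelle in the cell. The labels do not say that the 2 libraries of a dose came from separate cultures, so p-values measure only the spread between these libraries, which may be technical.

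The mitochondrial ribosome, or mitoribosome, translates the messenger RNAs of mtDNA, which encode core subunits of the respiratory chain and of ATP synthase. Its RNAs are made from mtDNA, but all of its proteins are encoded in the nucleus, translated in the cytosol and imported. Some descend from proteins of the bacterial ribosome and others were added in mitochondria. Because these messenger RNAs are nuclear transcripts, their counts in a mitochondrial preparation are read here as a share of the counts on nuclear genes, with CPM, the counts-per-million scale over all counts on genes, beside it. By textbook assignment 51 members belong to the large subunit, MRPS30 and MRPS18A among them, and 26 to the small subunit. MRPS36 was assigned by later work to the alpha-ketoglutarate dehydrogenase complex. Of the 77 ribosomal members 46 take the place of a bacterial protein and 31 are classed as added in mitochondria, which includes MRPS18A and MRPS18B, relatives of a bacterial protein that sit elsewhere. The 78 genes lie on 21 chromosomes.

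The libraries differed in depth and makeup in ways that touch every value below. Counts on genes ran from 29350 to 43556 at 10 µM, from 60854 to 240683 under DMSO and from 1338397 to 2141282 at 100 µM. The mtDNA share of counts was 43.74% and 61.14% at 10 µM, where DMSO gave 4.351% and 10.44%, and it was 3.585% and 3.32% at 100 µM. That left 24505 and 11406 counts on nuclear genes at 10 µM. MALAT1, a nuclear-retained RNA, held 14.11% and 5.152% of nuclear-gene counts under DMSO, 0.06937% and 0.114% at 10 µM and 2.988% and 2.685% at 100 µM. Of 9 hepatocyte markers 6 and 5 had a count under DMSO, 7 and 2 at 10 µM and 9 and 9 at 100 µM, and AFP, TTR and FGB were at 0 in both controls. Their summed share of nuclear-gene counts was 0.6199% and 1.361% in those, 0.07754% and 0.03507% at 10 µM, and 1.138% and 1.116% at 100 µM, and APOA2, an apolipoprotein gene, was called lower at 10 µM than in the controls by edgeR (adjusted p = 0.0111). Of 4 markers of fibroblasts, leukocytes and endothelium, the fibroblast gene COL1A1 had a count in all 6 libraries. Its counts were 50 and 6 under DMSO, 6 and 6 at 10 µM, and 67 and 42 at 100 µM. COL1A2 and PECAM1 had 0 to 3 counts per library, and the leukocyte gene PTPRC was at 0 in all 6. The summed share of these 4 ranged from 0.01101% to 0.02215% under DMSO, from 0.02448% to 0.07891% at 10 µM and from 0.003294% to 0.0034% at 100 µM. The part of these differences in the results below was not tested.

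Mitoribosomal protein genes held a small share of nuclear-gene counts, lowest at 10 µM. Control replicate 1 had 318 counts on them, 0.1381% of nuclear-gene counts (exact 95% binomial interval 0.1234 to 0.1542%), and control replicate 2 had 170, or 0.3119% (0.2668 to 0.3624%). The 10 µM libraries had 19 counts, 0.07754% (0.04669 to 0.1211%), and 12 counts, 0.1052% (0.05437 to 0.1837%). The 100 µM libraries had 5612 counts, 0.2718% (0.2648 to 0.279%), and 3918 counts, 0.3028% (0.2934 to 0.3124%). Both 10 µM libraries lay below the 4 others, and both 100 µM libraries lay between the 2 controls. The interval of 10 µM replicate 2 contains that of control replicate 1, so these libraries are not apart beyond counting error. The group means were 0.225% ± 0.1229 under DMSO, 0.09137% ± 0.01956 at 10 µM and 0.2873% ± 0.02192 at 100 µM (SD, n = 2). A share also depends on the other nuclear RNAs in its denominator, and it gives no amount per cell or organelle. In a bulk sample of organelles, fewer cells or organelles contributing and less RNA in each cannot be told apart. Intervals cover counting error only.

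**Figure D1:**
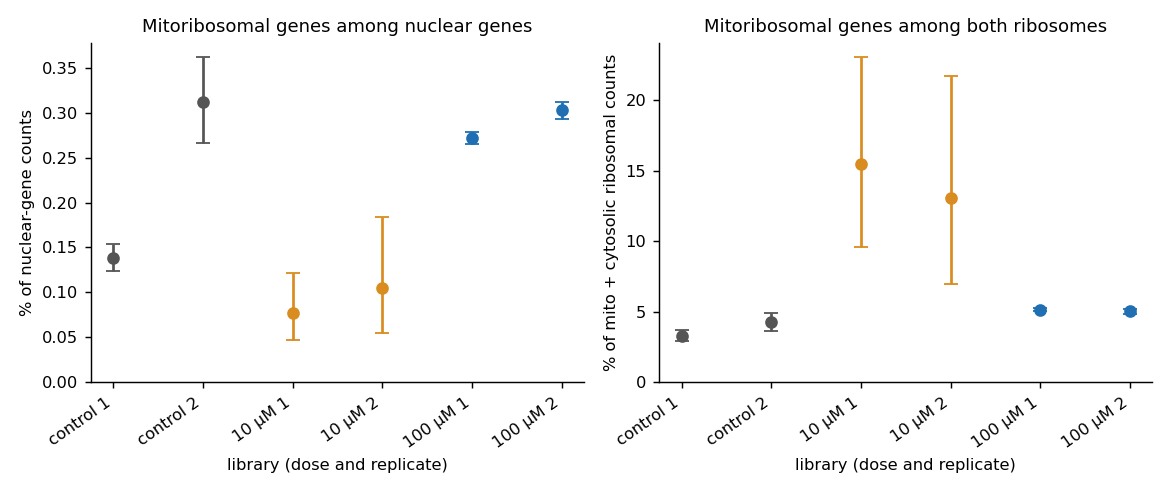
Left, the percent of nuclear-gene counts on the 78 mitoribosomal protein genes in each of the 6 libraries; right, their percent of the counts on mitochondrial and cytosolic ribosomal protein genes together. Points are values and bars exact 95% binomial intervals; the 10 µM libraries are lowest on the left (0.07754% and 0.1052%) and highest on the right (15.45% and 13.04%).

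On the scale of all counts the same genes stood at 1321 and 2794 CPM under DMSO, 436.2 and 408.9 with 10 µM GenX, and 2621 and 2927 with 100 µM GenX. Pooled over the libraries of a dose they held 488 counts under DMSO, 31 at 10 µM and 9530 at 100 µM, which is 1618, 425.2 and 2739 CPM. The pooled share of nuclear-gene counts at 10 µM was 0.5036 times that of the controls (95% counting interval 0.3384 to 0.7243). At 100 µM it was 1.656 times the control share (1.511 to 1.817) and 3.287 times the 10 µM share (2.314 to 4.841). Control replicate 1 carries most of the pooled control counts, and without it the 100 µM share was 0.9097 times that of the controls, so the direction against control rests on that library.

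Cytosolic ribosomal protein genes, whose messenger RNAs are abundant on cytosolic ribosomes, were read beside them. The 80 genes listed, 49 for the large and 31 for the small subunit, held 4.061% and 7.022% of nuclear-gene counts under DMSO, 0.4244% and 0.7014% at 10 µM, and 5.015% and 5.736% at 100 µM. The mitoribosomal genes took 3.29% (2.943 to 3.665%) and 4.253% (3.649 to 4.926%) of the counts on both kinds of ribosomal gene in the controls. They took 15.45% (9.564 to 23.07%) and 13.04% (6.925 to 21.68%) at 10 µM, and 5.141% (5.011 to 5.274%) and 5.014% (4.862 to 5.17%) at 100 µM. The values of the 3 groups did not overlap in this proportion, and the intervals of the 10 µM libraries lie above those of the other 4. The interval of control replicate 2 overlaps that of 100 µM replicate 2, so controls and 100 µM are not all apart beyond counting error. The 10 µM values rest on 19 and 12 mitoribosomal counts.

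Across subunits, MRPL genes took 60.69% and 82.35% of the mitoribosomal counts under DMSO, 68.42% and 25.0% at 10 µM, and 60.82% and 66.62% at 100 µM. Members with a bacterial counterpart took 61.64% and 54.12% under DMSO, 42.11% and 8.333% at 10 µM, and 65.63% and 64.29% at 100 µM. In both divisions the 2 replicates at 100 µM lay close together and those at 10 µM far apart. Counts lay on fewer members in the shallow libraries. The 5 members with most counts held 50.31% and 79.41% of the mitoribosomal counts under DMSO, 94.74% and 100% at 10 µM, and 34.59% and 42.01% at 100 µM. At 10 µM only 6 and 4 members had a count, from 19 and 12 counts in all. The 100% was therefore fixed by the number detected, and the 94.74% nearly so.

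Detection differed with depth. At least 1 count was present for 42 and 20 of the 78 members under DMSO, 6 and 4 at 10 µM, and 72 and 56 at 100 µM. When each library was reduced to 11406 nuclear-gene counts, the number in the shallowest, the expected number detected was 10.74 and 10.64 under DMSO, 4.274 and 4.0 at 10 µM, and 19.79 and 18.51 at 100 µM. At matched depth the difference between doses was thus smaller, but the order was the same. A gene at 0 may still lie below the level of 3 counts, the limit used here. That level is 13.03 and 55.04 nuclear CPM, which is CPM over nuclear-gene counts alone, under DMSO, 122.4 and 263.0 at 10 µM, and 1.453 and 2.318 at 100 µM.

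**Figure D2:**
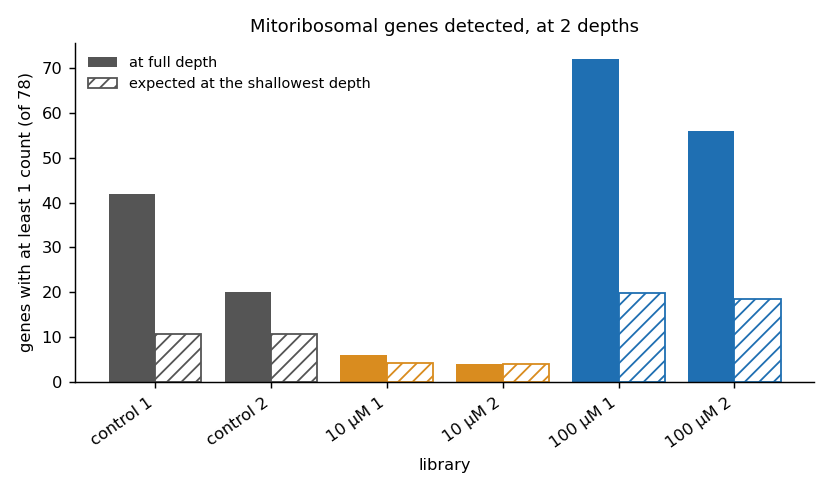
Number of the 78 mitoribosomal protein genes with at least 1 count in each library, at full depth (solid bars) and expected after reduction to 11406 nuclear-gene counts (hatched bars). Full depth runs from 4 to 72 genes and matched depth from 4.0 to 19.79.

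No member had a count in all 6 libraries. Members with a count in 5, 4, 3, 2 and 1 libraries numbered 2, 15, 23, 26 and 9, and 3 had none in any. In the controls 14 members had a count in both libraries and 34 in 1 of them. At 10 µM 0 members had a count in both libraries and 10 had one in 1 of them. Failing to repeat was common at that depth. Of all nuclear genes expected to have at least 10 counts in a 10 µM library from the level of its replicate, 68.19% had 0 there. At 100 µM the numbers were 53 and 22. A count at 100 µM and in no other group was found for 24 of the 75 members with a count (32.0%), against 32.6% of nuclear genes with a count.

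**Figure D3:**
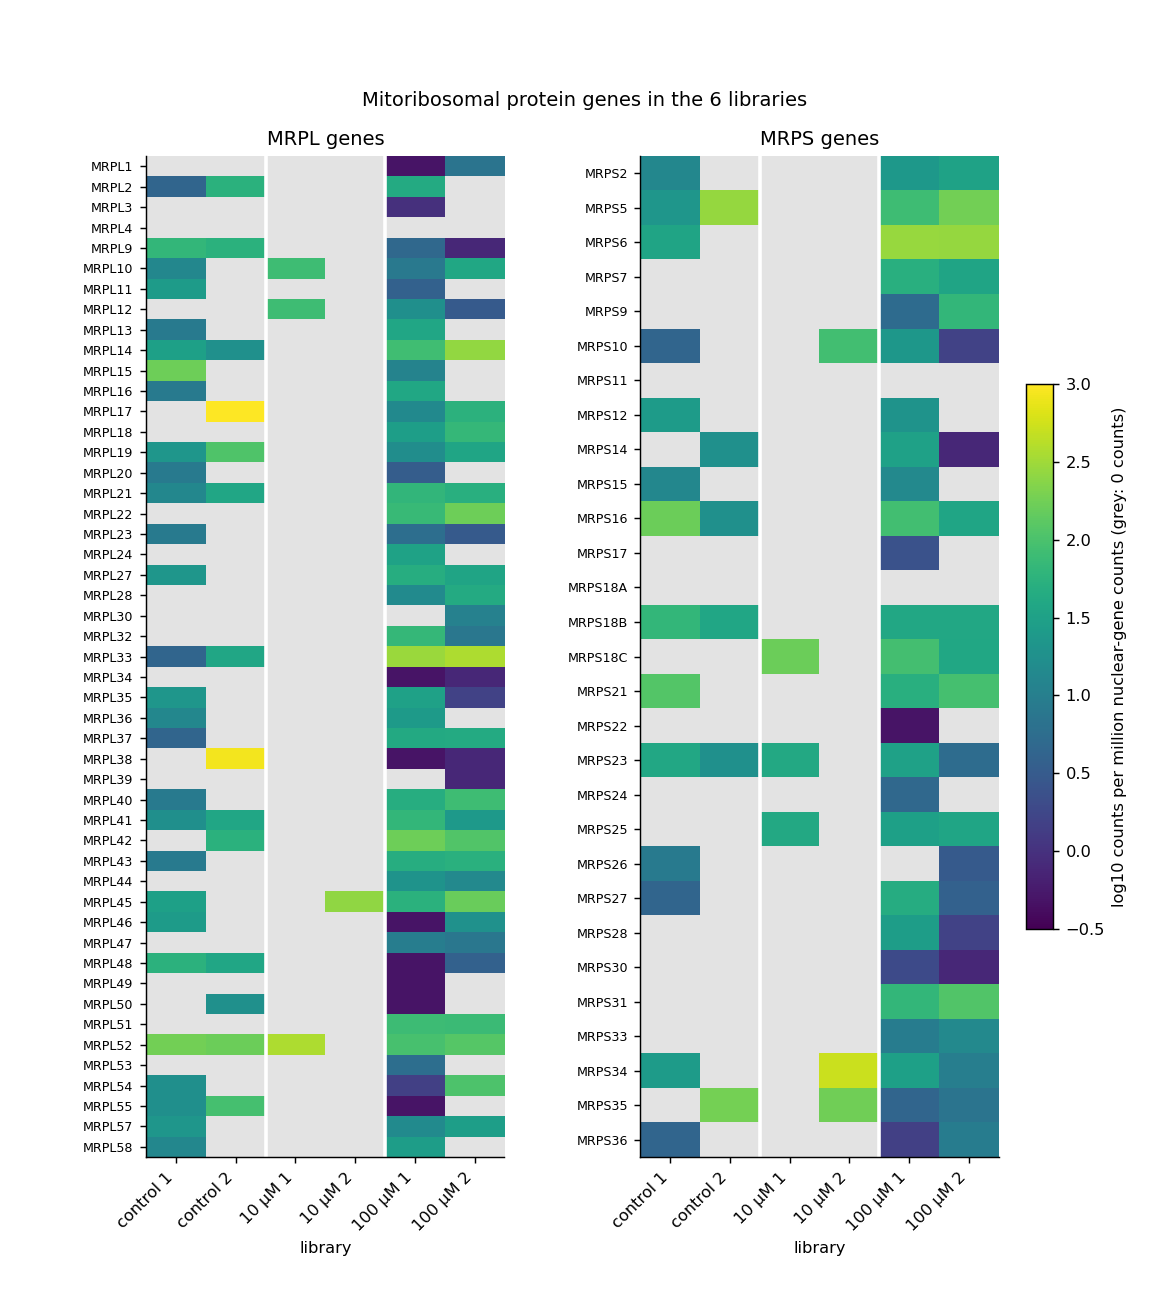
Levels of the 49 MRPL and 29 MRPS genes (vertical) in the 6 libraries (horizontal), as log10 of CPM over nuclear-gene counts, with 0 counts in grey. The 10 µM columns are grey but for 6 and 4 genes, and MRPL4, MRPS11 and MRPS18A are grey throughout.

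Among large-subunit genes, MRPL33, the counterpart of a bacterial protein near the tRNA exit site, had most counts at 100 µM. The gene lies at chr2:27771717-27988087, forward strand. It had 1 and 2 counts under DMSO, 0 and 0 at 10 µM, and 609 and 474 at 100 µM (4.155, 32.87, 0, 0, 284.4 and 354.2 CPM). Both 100 µM libraries were above every other library. The pooled ratio of nuclear share to control was 30.6 (95% counting interval 10.4 to 149), and against 10 µM the gene was at least 3.86-fold higher, with 3 counts over the pooled group standing for 0. MRPL33 shares 21.05% of its exon bases with BABAM2 on the same strand. BABAM2 had 17 and 43 counts at 100 µM and 111 and 0 with DMSO, and its part in the MRPL33 counts was not tested.

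MRPL14, a surface protein of the large subunit where assembly factors dock, had 7 and 1 counts under DMSO, 0 and 0 at 10 µM, and 173 and 354 at 100 µM (29.08, 16.43, 0, 0, 80.79 and 264.5 CPM). Both 100 µM libraries lay above both controls, and the pooled ratio was 5.58 (2.81 to 13.0).

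MRPL52, a protein without bacterial counterpart, was the large-subunit gene with most counts at 10 µM. It had 41 and 9 counts under DMSO, 9 and 0 at 10 µM, and 197 and 156 at 100 µM (170.3, 147.9, 206.6, 0, 92.0 and 116.6 CPM). Its level at 100 µM was below both controls, with a control share 1.67 times that at 100 µM (1.22 to 2.25), although its raw counts were higher there. At 10 µM the replicates disagreed, 1 above every other library and 1 at 0.

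MRPL17 and MRPL38 owed their rank among the most abundant members to control replicate 2. MRPL17, the counterpart of a bacterial large-subunit protein, had 0 and 53 counts under DMSO, 0 and 0 at 10 µM, and 30 and 72 at 100 µM (0, 870.9, 0, 0, 14.01 and 53.8 CPM). MRPL38, a protein of the central protuberance, had 0 and 48 counts under DMSO, 0 and 0 at 10 µM, and 1 and 1 at 100 µM (0, 788.8, 0, 0, 0.467 and 0.747 CPM). In both genes the controls spanned the other groups. Neither had a count in control replicate 1, the deeper control. Exon bases of MRPL38 overlap another gene on the same strand over 37.48% of their length.

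Among small-subunit genes, MRPS6 had most counts at 100 µM. It lies at chr21:34073224-34143034, forward strand, and encodes the counterpart of a bacterial platform protein. It had 8 and 0 counts under DMSO, 0 and 0 at 10 µM, and 602 and 367 at 100 µM (33.24, 0, 0, 0, 281.1 and 274.2 CPM). The 100 µM libraries were close to each other and above the other 4. The pooled ratio to control was 10.3 (5.19 to 23.9), and the level was at least 3.45-fold that at 10 µM. MRPS6 shares 9.607% of its exon bases with SLC5A3, a gene for a myo-inositol transporter, which had 127, 0, 0, 5, 248 and 143 counts in the same order, so reads of the 2 genes may not be fully separated.

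MRPS5, the counterpart of a bacterial protein beside the messenger RNA channel, had 5 and 15 counts under DMSO, 0 and 0 at 10 µM, and 168 and 235 at 100 µM (20.77, 246.5, 0, 0, 78.46 and 175.6 CPM). The 100 µM libraries lay between the controls. MRPS16, in which mutations cause a combined respiratory chain deficiency, had 38 and 1 counts under DMSO, 0 and 0 at 10 µM, and 178 and 47 at 100 µM (157.9, 16.43, 0, 0, 83.13 and 35.12 CPM). Its 100 µM libraries also lay between the controls.

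MRPS21, the counterpart of a small bacterial platform protein, had 27 and 0 counts under DMSO, 0 and 0 at 10 µM, and 107 and 121 at 100 µM (112.2, 0, 0, 0, 49.97 and 90.41 CPM). MRPS34, a protein without bacterial counterpart whose mutation is a cause of Leigh syndrome, had 6 and 0 counts under DMSO, 0 and 6 at 10 µM, and 63 and 13 at 100 µM (24.93, 0, 0, 204.4, 29.42 and 9.713 CPM). The highest level of MRPS34 thus rests on 6 counts of 1 library.

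All 10 members seen at 10 µM had few counts. Replicate 1 held MRPL52 with 9, MRPS18C with 4, MRPL10 and MRPL12 of the stalk with 2 each, and MRPS23 and MRPS25 with 1 each. Replicate 2 held MRPS34 with 6, MRPL45, which tethers the ribosome to the inner membrane, with 3, MRPS35 with 2 and MRPS10 with 1. The lists did not share a gene.

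Of the members at 0 in all control and 10 µM libraries, MRPL22, MRPS31 and MRPL51 had most counts at 100 µM. MRPL22, which lines the tunnel for the growing chain, had 147 and 216 counts at 100 µM. MRPS31, a protein without bacterial counterpart, had 136 and 144, and MRPL51, also without one, had 164 and 99. With 3 counts over the pooled controls in place of 0, their shares at 100 µM were at least 10.3-fold, 7.91-fold and 7.43-fold higher than in the controls. The genes were chosen for being at 0 there and high at 100 µM, so this direction follows from the choice. Against 10 µM, the 100 µM levels of MRPS31 and MRPL51 lay below the limit, so 0 counts at 10 µM show no difference for them.

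MRPL4, another protein of the exit tunnel (chr19:10251901-10260045, forward strand), MRPS11, a platform protein (chr15:88467453-88480773, forward strand), and MRPS18A, placed in the large subunit (chr6:43671303-43687791, reverse strand), had 0 counts in all 6 libraries. Over the pooled 100 µM libraries, 0 counts allow a level of up to 0.8933 nuclear CPM for each. On the opposite strand 21.35% of the exon bases of MRPL4, 9.173% of those of MRPS11 and 47.04% of those of MRPS18A overlap another gene. RSPH9, the neighbour of MRPS18A, had 49 counts in 100 µM replicate 1 and 0 in the other 5 libraries. How reads in such overlaps were counted is not given in the sources used here.

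Upstream sequence is shown for 5 of these genes, so that the start regions of members high at 100 µM (MRPL33, MRPL22, MRPS31), high in 1 library at 10 µM (MRPS34) and at 0 throughout (MRPS18A) can be set side by side. Each is the 120 bases before the start that RefSeq annotates, 5′ to 3′ on the gene's strand, from RefSeq on GRCh38.p14, with 3 short motifs in capitals on either strand: CCGGAAG, a core of ETS-family binding sites, AAGATGG, a core of YY1 sites, and GCGCATG, a part of NRF1 sites.
MRPL33: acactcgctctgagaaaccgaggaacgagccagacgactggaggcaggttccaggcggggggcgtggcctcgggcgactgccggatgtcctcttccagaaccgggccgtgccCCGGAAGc
MRPL22: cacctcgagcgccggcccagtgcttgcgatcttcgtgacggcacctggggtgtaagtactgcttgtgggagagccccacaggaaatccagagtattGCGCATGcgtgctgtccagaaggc
MRPS31: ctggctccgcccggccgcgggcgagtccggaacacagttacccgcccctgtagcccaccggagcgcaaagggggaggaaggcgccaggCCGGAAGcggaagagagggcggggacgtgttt
MRPS34: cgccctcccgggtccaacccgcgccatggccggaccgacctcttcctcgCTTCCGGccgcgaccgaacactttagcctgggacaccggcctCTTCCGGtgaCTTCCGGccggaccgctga
MRPS18A: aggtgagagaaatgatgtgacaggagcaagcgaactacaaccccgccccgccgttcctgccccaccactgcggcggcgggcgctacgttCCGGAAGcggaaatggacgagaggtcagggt
The windows are chr2:27771599-27771718 (forward), chr5:154940953-154941072 (forward), chr13:40771191-40771310 (reverse), chr16:1773135-1773254 (reverse) and chr6:43687792-43687911 (reverse), in that order. RefSeq starts can differ from the deposited ones, and 21 bases of the MRPS34 window, 3 of the MRPL22 window and 2 of the MRPL33 window lie inside the gene as deposited. The ETS letters occur once in MRPL33, MRPS31 and MRPS18A and 3 times in MRPS34, and MRPL22 has the NRF1 letters instead, so genes with and without counts in these libraries carry such letters.

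Windows from 250 bases before to 50 after the start were found for 69 of the 78 members. The letters CCGGAAG occurred on either strand in 29 of them (42.03%), against 10.67% of all 27305 windows and 14.23% of the 15842 windows of coding genes. AAGATGG, a core of YY1 sites, occurred in 23 (33.33%), against 6.061% and 6.401%. GCGCATG, a part of NRF1 sites, occurred in 7 (10.14%), against 4.673% and 5.87%. The ETS letters can overlap those of YY1 at AAG, and those of NRF1 can overlap their own reverse. Within the 250 bases before the start alone, CCGGAAG occurred in 23 member windows, AAGATGG in 7 and GCGCATG in 7. Most members with AAGATGG thus had it only in, or reaching into, the 50 bases after the start. The shares of all windows and of coding genes were not split in this way. A match is a description of the letters in this window.

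Compared per kilobase of exon length, as the tables give it, at 100 µM, where most members could be measured, the median member stood at 7.255 nuclear CPM per kb. MRPL33 was highest at 214.8 ± 32.74 nuclear CPM per kb (SD, n = 2), with MRPL14 at 186.3 ± 140, MRPS6 at 66.9 ± 1.315, MRPL45 at 61.55 ± 42.45, MRPL54 at 53.52 ± 73.65 and MRPL51 at 50.27 ± 1.336. MRPL45, MRPL54 and MRPL51 were named after their values were seen. In this order 76 of the 77 neighbouring pairs overlapped in their library values, and the exception was MRPL14 above MRPS6. The median was 7.417 nuclear CPM per kb for the 30 large-subunit members with a bacterial counterpart and 9.659 for the 21 without. It was 9.808 for the 16 small-subunit members with one and 3.361 for the 10 without. Differences between these classes were not tested.

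Replicates of a dose disagreed by more than counting error. At 100 µM the 53 members present in both libraries differed by a median of 2.344-fold, 24 of them by less than 2-fold and 9 by more than 10-fold. The widest was MRPL54, at 72.86-fold, with 3 and 137 counts. In the controls the 14 such members differed by a median of 2.473-fold, and MRPS5 was widest at 12.67-fold. Of 57 members expected to have at least 10 counts in a 100 µM library from the level of its replicate, 10 (17.54%) had 0 there, against 20.13% of all nuclear genes. MRPL2 is an example, with 89 and 0 counts. In the controls 4 of 10 members (40.0%) and 30.44% of all nuclear genes were missing in this way. MRPL54 and MRPL2 were chosen after their values were seen.

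**Figure D4:**
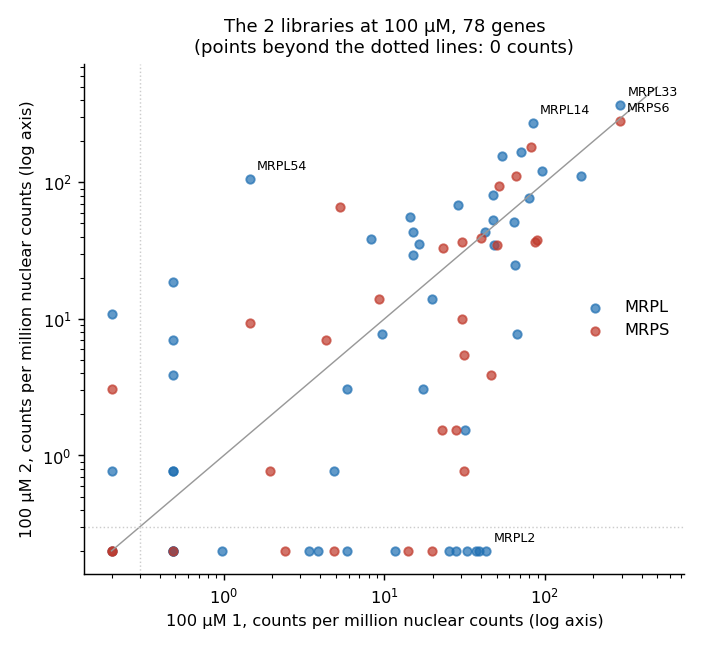
Nuclear CPM of the 78 members in 100 µM replicate 1 (horizontal, log axis) and replicate 2 (vertical, log axis), blue for MRPL and red for MRPS, with the line of equality. MRPL33 and MRPS6 lie near the line at the top, whereas MRPL54 (3 and 137 counts) and MRPL2 (89 and 0 counts) lie far from it.

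Against the controls at 10 µM, 0 of the 13 members tested passed edgeR's quasi-likelihood test at a Benjamini-Hochberg adjusted p of 0.05, where 0.597% of the 3180 genes tested did (19 genes). At an unadjusted p under 0.05 there were 3 members (23.1%), MRPS18C higher and MRPS16 and MRPS5 lower, against 28.1% of all genes tested. MRPS18C was at 0 in both controls and MRPS16 and MRPS5 were at 0 at 10 µM, so no other direction was possible. The control level of MRPS5 lay below the limit at 10 µM, so its 0 counts there show no difference. DESeq2's Wald test also called 0, with 1 member at an unadjusted p under 0.05. The smallest edgeR adjusted p was 0.166, for MRPS18C, which had 4 counts in 1 library at 10 µM and 0 in both controls. MRPL52, with counts in both groups, differed by -0.77 ± 1.74 on the log2 scale (SE; adjusted p = 0.771). In 49 of the 78 members both groups were at or under the limit of 3 pooled counts, and for 18 more the control level lay below the limit at 10 µM, 83.54 nuclear CPM. At this depth a difference was therefore not detectable for most members.

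Where a bound could be given at 10 µM, MRPL17, MRPL38, MRPL15, MRPS16 and MRPS21 were at least 2.23-fold, 2.02-fold, 1.64-fold, 1.64-fold and 1.14-fold lower than in the pooled controls. These were 5 of 51 members (9.8%), against 6.73% of nuclear genes. MRPL17, MRPL38, MRPL15 and MRPS21 had counts in 1 control library alone and MRPS16 had 38 and 1, and MRPL15 was named after its values were seen. Of 5 members with a ratio, MRPS34 alone had an interval off 1, at 7.93 (2.12 to 29.7), from 6 counts against 6, while 39.6% of nuclear genes with a ratio had an interval above 1 and 16.6% below 1. MRPS18C, with 4 counts in 1 library, was the only member at least higher, by 10.6-fold, against 10.4% of nuclear genes. Libraries of the 2 groups stood apart by more than the level of 3 counts for 0 of 51 members in either direction, against 1.63% of nuclear genes higher and 1.51% lower. The median log2 difference of the 13 tested members was -6.73, against -3.18 for all genes tested. That median depends on the value put in place of 0 counts. A mixed rule took edgeR's difference where both groups had counts, and otherwise the log2 bound from pooled shares of nuclear-gene counts. By it the median was 0.25, over the 9 members with a value. Members whose control level lay below the limit at 10 µM, such as MRPS5, enter as positive values, so its sign shows no direction.

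Against the controls at 100 µM, edgeR called 0 of 13 members and 0 of 3180 genes (0%). At an unadjusted p under 0.05 there were 573 genes (18%), among them 3 members (23.1%), MRPL22, MRPL51 and MRPS18C, each at 0 in both controls. MRPL22 and MRPL51 had counts at 100 µM alone, so they passed the filter on low counts only through the group in which they are high, and their direction was set by that filter. DESeq2's Wald test called 0 members, with 1 at the unadjusted level. The smallest edgeR adjusted p was 0.204, for MRPL22. For members with counts in both groups the log2 differences were 3.90 ± 1.75 for MRPL33 (SE; adjusted p = 0.276 in edgeR), 2.999 ± 1.67 for MRPS6 (0.365) and 2.14 ± 1.42 for MRPL14 (0.437). MRPL33, MRPS6 and MRPL14 had 3, 8 and 8 pooled control counts and 0 at 10 µM. They too passed the filter only through their 100 µM counts, so the filter favoured a higher level there. MRPS16 stood at -1.44 ± 1.44 (0.608) and MRPS5 at -0.39 ± 1.47 (0.906). The median over the 13 was 2.14, also by the mixed rule above. The 13 hold members kept by the filter through their 100 µM counts and do not stand for the 78. The fitted median over all genes tested was 0.35. The members' median lay at -0.26 without control replicate 1. It was -0.57 without 100 µM replicate 1 and -0.62 without replicate 2. These 3 fits tested 9, 9 and 8 members.

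Counted by non-overlap, 7 of 75 members (9.33%) were higher in both 100 µM libraries than in both controls by more than the level of 3 counts, against 8.92% of nuclear genes. They were MRPL14, MRPL22, MRPL33, MRPL42, MRPL51, MRPS31 and MRPS6. Lower in both were 3 of 75 (4.0%), MRPL52, MRPL55 and MRPL9, against 2.55% of nuclear genes. MRPL55 had 4 and 5 control counts and 1 and 0 at 100 µM, and MRPL9 had 15 and 3 against 10 and 1. The first share is near that of all nuclear genes, and the other rests on 3 members.

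**Figure D5:**
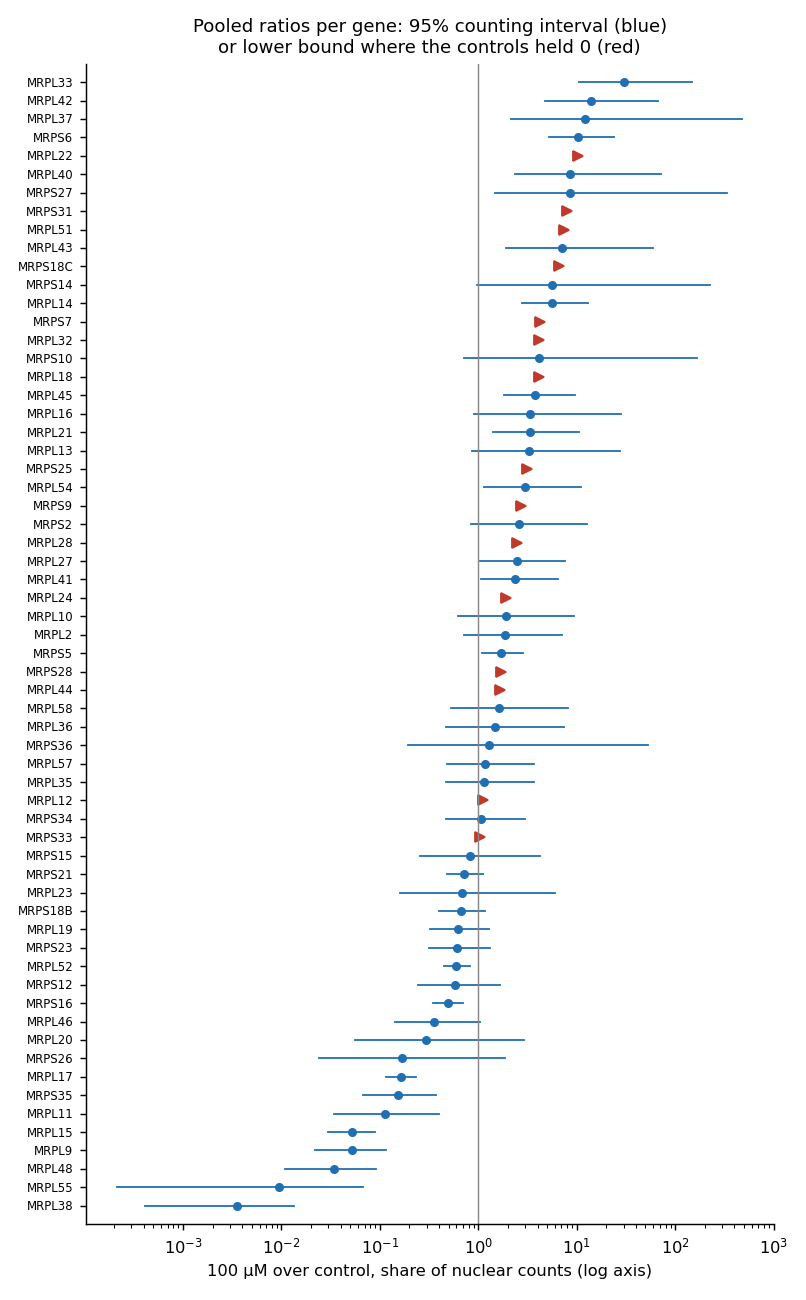
Ratio of the pooled share of nuclear-gene counts at 100 µM to that in the controls (log axis) for each member with a ratio or a lower bound, ordered by value. Blue points carry 95% counting intervals and red triangles are lower bounds where the controls had 0 counts; MRPL33 is at 30.6 at the top and MRPL38, whose control share is 283 times that at 100 µM, at the bottom.

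Gene by gene, a ratio of the pooled shares at 100 µM and in the controls could be given for 47 members, with a counting interval above 1 for 14 (29.8%), below 1 for 10 (21.3%) and spanning 1 for 23. By the same rule 36.2% of nuclear genes with a ratio had an interval above 1 and 24.9% below 1. Of 75 members with a count in either group, a further 15 (20%) had none in the controls and were at least 1.05-fold to 10.3-fold higher. The share among nuclear genes was 11.9%. A gene at 0 in the controls can only come out higher, so this count says nothing of direction. Among the 15, MRPL24 was at 0 in 100 µM replicate 2. Of the 14 above 1, 9 had a library at 0, and of the 10 below 1, 6 had. MRPL42, with 0 and 3 control counts against 348 and 145, had a ratio of 13.9 (4.74 to 67.8). At the other end, the control share was 283 times that at 100 µM for MRPL38 (74.2 to 2405), 106 times for MRPL55 (14.7 to 4653), 29.5 times for MRPL48 (10.8 to 92.8) and 19.3 times for MRPL9 (8.63 to 45.2). These intervals leave out the disagreement between replicates described above. For MRPS5 the pooled ratio was 1.71 (1.09 to 2.83) while edgeR's difference was -0.39. A pool weights each library by its counts, and control replicate 1 held 230210 of the 284712 pooled control counts on nuclear genes. MRPL24, MRPL42, MRPL48, MRPL55 and MRPL9 were named after their values were seen.

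Between the GenX doses edgeR called 91 of 3180 genes (2.86%) and 0 of the 13 members. At an unadjusted p under 0.05 there were 4 members (30.8%), MRPL33, MRPS6, MRPL14 and MRPL22, against 36.2% of all genes tested. All 4 were at 0 at 10 µM, so their direction was fixed once they passed the filter. DESeq2's Wald test called 0, with 1 member at the unadjusted level and a smallest adjusted p of 0.0857. The smallest edgeR adjusted p was 0.13, shared by MRPL33, MRPS6 and MRPL14, all at 0 at 10 µM. When control replicate 1 was left out of edgeR's fit, MRPL33 (adjusted p = 0.0223) and MRPS6 (0.0261) passed, and likewise without control replicate 2 (0.0113 and 0.0150). Those were 2 of 9 members (22.2%) against 36% of all genes in the first of these fits, and 2 of 36 (5.56%) against 18.5% in the other. The controls enter this comparison through the filter, the scaling and the shared estimate of spread. Members whose libraries stood apart were MRPL33 and MRPS6, 2 of 75 (2.67%), against 3.01% of nuclear genes, and 0 members stood lower at 100 µM in this way, against 1.07%.

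Bounds at 100 against 10 µM were at least 3.86-fold for MRPL33, 3.45-fold for MRPS6, 1.88-fold for MRPL14, 1.76-fold for MRPL42, 1.44-fold for MRPS5 and 1.29-fold for MRPL22, 6 of 75 members (8.0%) against 6.45% of nuclear genes. For 51 members the 100 µM level lay below the limit at 10 µM, so 0 counts at 10 µM say nothing of a difference there. Lower at 100 than at 10 µM, with an interval below 1, were MRPL52 at 0.419 times (0.218 to 0.925), MRPS34 at 0.135 times (0.0594 to 0.381) and MRPS35 at 0.0962 times (0.0230 to 0.855), each from 1 library at 10 µM. These were 3 of 10 members with a ratio (30%), against 38.2% of nuclear genes, and 0 of the 10 had an interval above 1, against 13.7%. The median log2 difference of the 13 members was 8.55, against 3.52 for all genes tested. By the mixed rule used for 10 µM against control it was 0.37, where 100 µM levels below the limit at 10 µM enter as negative values. This comparison shares its 100 µM and 10 µM libraries with the 2 against control.

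Without control replicate 1, the controls rested on replicate 2 alone, and edgeR then called MRPL17 (adjusted p = 0.0330) and MRPL38 (0.0302) lower at 10 µM, and MRPL38 (0.0272) lower at 100 µM. These were 2 of 9 members (22.2%) against 12.5% of all genes, and 1 of 9 (11.1%) against 3.57%. Both genes owe this to the 53 and 48 counts of that library. In such a fit the lone control is assumed to vary like the other groups.

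Other genes of mitochondrial translation were read from lists of proteins that build or serve the mitoribosome. The 5 mitoribosome proteins with other symbols (DAP3, PTCD3, CHCHD1, AURKAIP1 and GADD45GIP1) had 1 member tested, PTCD3 of the small subunit. It had 15 and 28 counts under DMSO, 8 and 0 at 10 µM, and 83 and 114 at 100 µM, and it was not called (edgeR adjusted p = 0.609 for 10 µM and 0.479 for 100 µM against control, and 0.661 between doses). Of 14 translation factors and partners 5 were tested and 0 called in the 3 comparisons, with smallest adjusted p-values of 0.159, 0.204 and 0.13. TSFM, an elongation factor, had most CPM on average, from 52 counts in control replicate 2 and 2 in 10 µM replicate 1, and was at 0 in the other 4 libraries. Of 25 assembly factors 3 were tested and 0 called (smallest adjusted p-values 0.245, 0.212 and 0.132), with MRM2, a methyltransferase of the large ribosomal RNA, at 0 and 15 counts under DMSO, 0 and 0 at 10 µM, and 18 and 90 at 100 µM. Of 20 aminoacyl-tRNA synthetases 1 was tested and 0 were called. IARS2, for isoleucine, had 5 and 63 counts under DMSO, 0 and 0 at 10 µM, and 116 and 85 at 100 µM. At an unadjusted p under 0.05 there were 1, 2 and 3 translation factors and 0, 1 and 1 assembly factors, in the order of the 3 comparisons, in which 28.1%, 18% and 36.2% of all genes tested lay under that p. As in MRPL17 and MRPL38, the highest CPM of PTCD3, TSFM, MRM2 and IARS2 came from control replicate 2.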

How the data were processed

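RNA of mitochondria isolated from HepG2 cells was read as raw counts per gene, as deposited by the authors in 1 table per library. Per the submitters' processing notes the tools were FastQC, STAR, featureCounts and DESeq2 with GRCh38; versions, annotation release and the strand and overlap settings are not given in the sources used here, and they bear on the members that share exon bases with another gene (15 on the same strand, 29 on the opposite one). Symbols came from GENCODE 29, which held 56898 of the 57500 identifiers and placed 77 of the 78 members at the deposited start and end; 0 lines named no gene. Library totals ran from 29350 to 2141282 counts, and 0 counts were read as a level of up to 3 counts. Shares carry exact (Clopper-Pearson) 95% intervals and pooled ratios exact conditional ones.

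Groups and replicate numbers came from the titles. The 3 comparisons were fitted across all genes with edgeR 4.0.16 in R 4.3.3: filterByExpr (3180 genes kept), TMM scaling, robust quasi-likelihood fits of the 6 libraries in 1 model of group means, two-sided tests, Benjamini-Hochberg adjustment over all genes tested and a threshold of 0.05. The SE given with an edgeR log2 difference is the size of the difference divided by the square root of its F statistic. Scripts were tested on simulated data. Alternatives were DESeq2 1.42.0 with its Wald test, other scalings, no filter, only the 4 libraries compared, a replicate block, other denominators and leaving out each library; DESeq2 on unfiltered genes was added after the data were seen. Tables used Python 3.11.15, pandas 2.3.3, numpy 2.4.6 and scipy 1.17.1, and figures matplotlib 3.10.9.

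The members, gene lists and rules were chosen with earlier results of these data known. Values per library are given for members called in a comparison (0), the 5 MRPL and 5 MRPS genes with the highest mean CPM, members counted in both 10 µM libraries (0), the 3 with most counts at 100 µM among those at 0 elsewhere, and members at 0 in all 6; of each other list, the member with the highest mean CPM where none was called.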

Additional observations from a re-analysis of the deposited data

Results flagged for a closer look

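Pseudogenes of the mitoribosomal protein genes enter none of the comparisons. The tables list 75 of them, and 10 had a count in any library. In 10 µM replicate 1 they held 5 counts, 0.0204% of nuclear-gene counts, above the controls at 0.003909% and 0%, and it is listed here because the signal lies outside the genes compared and above both controls. The 5 counts were 4 on MRPS21P6 and 1 on MRPS31P5, while MRPS21 and MRPS31 themselves had 0 counts in that library. The other 10 µM library had 0, and the 100 µM libraries held 0.001695% and 0.002318%, most of it on MRPL45P2 with 26 and 27 counts. Reads of a gene and its near-identical copy can be assigned to either, and how they were assigned is not given in the sources used here.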

How the results depend on the processing

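The number of mitoribosomal members called was 0 in each of the 3 comparisons under every alternative run on all 6 libraries. Leaving out 1 library gave 0 to 2 at 10 µM against control, 0 to 1 at 100 µM against control and 0 to 2 between doses. Counts over all genes depended on the processing far more. At 10 µM against control the 19 genes became 7 without a filter, 7 with library sizes alone, 526 with DESeq2's Wald test, 206 with only the 4 libraries compared and 4 to 861 with a library left out. At 100 µM against control the 0 became 4 with DESeq2 size factors, 220 with the Wald test, 3 with that test on unfiltered genes (added after seeing the data) and 0 to 204 with a library left out. Between doses the 91 became 3 without a filter, 162 with TMM without mtDNA genes, 374 and 503 with the Wald test on filtered and unfiltered genes, 258 with the 4 libraries and 16 to 1272 with a library left out. The cause was not tested. With only the 4 libraries, 0 members were tested at 10 µM against control, so that median has no value. DESeq2 on unfiltered genes gave no member an adjusted p there. Scaling moved the median log2 difference of all genes, from -3.18, 0.35 and 3.52 in the 3 comparisons to -2.66, -0.06 and 2.54 with DESeq2 size factors and -2.64, 1.02 and 3.66 with library sizes alone. The 19 genes were 7 higher and 12 lower, against 8 and 7 with DESeq2 size factors and 0 and 7 with library sizes alone. Between doses the split was 24 higher and 67 lower, against 6 and 73 with DESeq2 size factors and 9 and 494 with DESeq2 on unfiltered genes. More genes were higher than lower with only the 4 libraries (158 and 100), without control replicate 1 (822 and 219), without control replicate 2 (927 and 345), without 100 µM replicate 2 (9 and 8) and without a filter (3 and 0).

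The members' median log2 difference at 10 µM against control moved from -6.73 to -1.16 with the Wald test and -0.14 on unfiltered genes. At 100 µM against control it was -0.041 on unfiltered genes and -0.62 to 2.03 with a library left out, and between doses 2.53 and 0.29 with the Wald test, and 3.69 to 7.99 with a library left out. The share at 10 µM was 0.04225% of all counts and 0.04671% without the top member, and at 100 µM 0.3137% without the 10 most abundant nuclear genes and 0.2542% without the top member. Members with at least 2 counts averaged 3.5 at 10 µM. The pooled ratio on all counts was 0.2627 at 10 µM against control and 6.441 between doses. At 100 µM against control it reversed to 0.9097 without control replicate 1, and ranged to 2.054.

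Same-numbered libraries did not deviate together (correlations of 0.000331, 0.00315 and -0.0222 over 3180 genes). At the depth of the 10 µM and control libraries this cannot exclude that they were paired, and the labels do not say. With a replicate block 75, 22 and 136 genes were called in the 3 comparisons, and 0 members. Depth limits the 10 µM values most, at 31 pooled counts on members.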
